A study of Danio rerio with 12 samples.

Results

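The comparison described here is between zebrafish larvae exposed to 30 mg/L OBS (OBS30, replicates 1, 3 and 4) and larvae exposed to 20 mg/L OBS (OBS20, replicates 1, 2 and 3). It was chosen by exposure label and takes 6 of the 12 libraries of the study. OBS, sodium p-perfluorous nonenoxybenzene sulfonate, is a surfactant used in place of perfluorooctane sulfonate (PFOS). The libraries were poly(A) RNA-seq of larvae at 4 days post fertilization, all labelled wild type with larvae as the tissue, and the other 6 were 3 of 20 mg/L PFOS and 3 of untreated larvae. The labels give neither the length of exposure nor the number of larvae in a library, and they do not say whether replicates came from separate clutches. The p-values below therefore measure only the spread between these libraries, which may be technical.

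A larva at this age has open skin covered by keratinocytes, ionocytes in that skin that exchange ions and ammonia with the water, and a liver, gut and exocrine pancreas that are just becoming active. Damaged or stressed tissue in fish, as in mammals, is known to switch on AP-1 transcription factors, inflammatory mediators, matrix-cleaving enzymes and chaperones within hours. The exocrine pancreas makes and stores digestive enzymes, and its messages are among the most organ-specific in a whole larva. In RNA from whole larvae, fewer cells of a type and less RNA per cell cannot be told apart.

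Values are TPM, the length-scaled share of transcripts in a library. A change is the difference in mean log2(TPM + 1), OBS30 minus OBS20, with its standard error (SE). The added 1 makes it understate the change of weakly expressed genes. Genes were tested where at least 3 of the 6 OBS libraries had at least 1 TPM, which 28315 of 44667 genes and loci did. Calls were made in limma where the p-value, adjusted by Benjamini-Hochberg over all tested genes, was below 0.05. A call is said to hold where it was made again with each of the 12 libraries of the fit left out in turn.

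OBS30 differed from OBS20 in a limited set of genes, and more of them were higher than lower. Of the tested genes 507 were called (1.79%), 360 higher (1.27%) and 147 lower (0.519%) in OBS30. The counts of called list members below stand beside these shares of all tested genes. The change reached 2-fold on the log scale for 156 of those called higher and 43 of those called lower. The 3 libraries of one group did not overlap the 3 of the other for 4916 genes (17.4%), 3162 of them higher (11.2%) and 1754 lower (6.19%) in OBS30.

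OBS20 replicate 3 stood apart from the other libraries. Its median TPM over the tested genes was 3.64, against 4.87 to 5.73 in the 3 OBS30 libraries and 5.39 and 5.67 in the other OBS20 libraries. It had 23942 genes at 1 TPM or more, against 27023 to 28432 in OBS30 and 27735 and 28115 in the other OBS20 libraries. The first principal component of the 6 libraries (45.0% of the variance) set it apart, and the second (19.6%) separated the doses. Without it 269 genes were called higher (0.95%) and 141 lower (0.498%), of which 244 and 93 were called the same way with it. The median change of all tested genes was 0.11 with OBS20 replicate 3 and -0.05 without it. Of the called genes 71.0% were higher in OBS30, and this share was 63.9% after median-of-ratios scaling and 54.8% after quantile normalization. The number called also rested on single libraries: it was 177 higher and 80 lower without OBS30 replicate 1, 116 and 42 without OBS30 replicate 3, 147 and 45 without OBS30 replicate 4, and 215 and 71 without OBS20 replicate 1. Without OBS20 replicate 2 it was 288 higher and 83 lower.

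**Figure D1:**
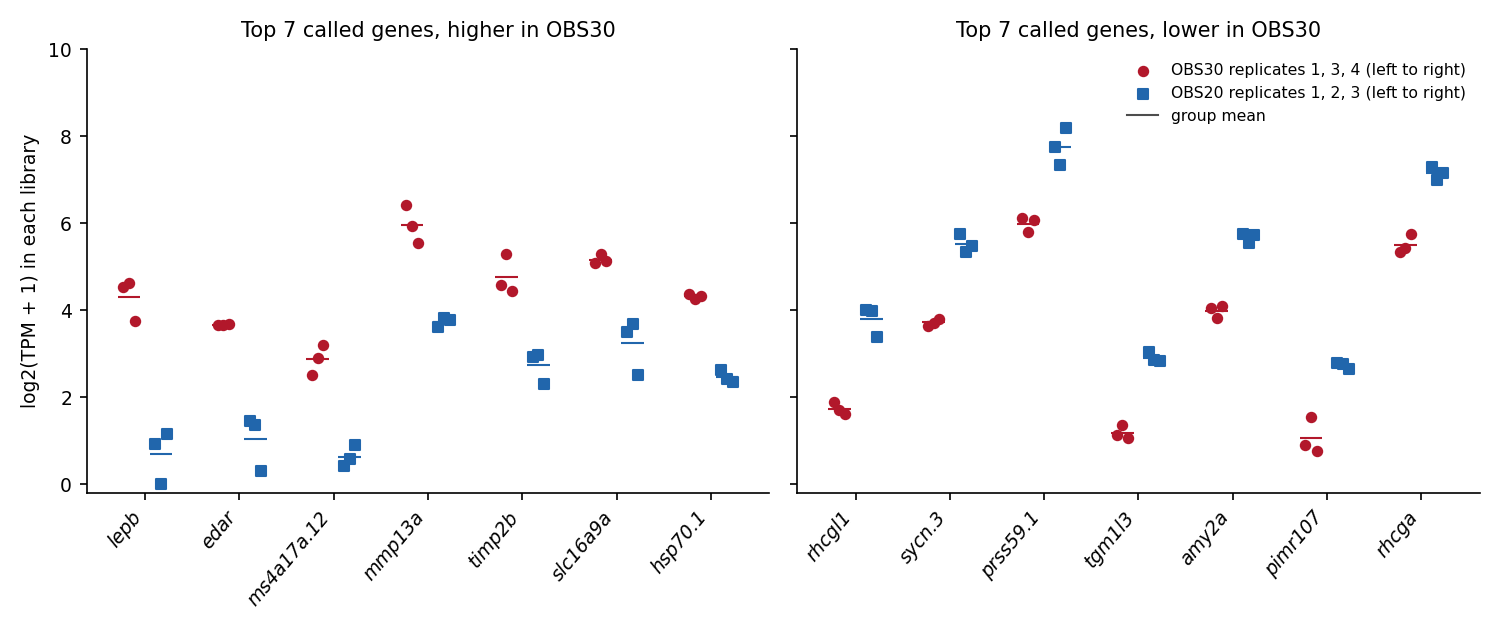
Level of the 7 called genes with the highest change (left) and the 7 with the lowest (right) in each OBS library, as log2(TPM + 1) on a linear axis, for genes whose groups do not overlap and whose higher group averaged 5 TPM or more. Circles are OBS30 replicates 1, 3 and 4, squares are OBS20 replicates 1, 2 and 3, and lines are group means; in every gene shown the 3 OBS30 libraries lie on one side of the 3 OBS20 libraries.

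The highest change among named genes was that of lepb (ENSDARG00000045548), 1 of the 2 zebrafish leptins. Leptin is a cytokine-like hormone that signals through JAK kinases and STAT factors, and in fish its genes are known to respond to injury and low oxygen. Its levels were 22.4, 23.8 and 12.4 TPM in OBS30 replicates 1, 3 and 4, against 0.90, 0 and 1.25 TPM in OBS20 replicates 1, 2 and 3. The lowest OBS30 library was far above every OBS20 library. The change was 3.61 ± 0.32 (SE; limma adjusted p = 0.000742), 3.85 without OBS20 replicate 3 (adjusted p = 0.00197), and the call was made under all 21 alternative settings. Untreated larvae averaged 0.937 ± 0.442 TPM (SD, n = 3). The other leptin, lepa, averaged 3.82 TPM in OBS30 and 0.290 TPM in OBS20, with no overlap, and was not called (1.83 ± 0.52, adjusted p = 0.13).

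Both copies of suppressor of cytokine signalling 3, the feedback inhibitor that STAT factors switch on, were also higher. The level of socs3a (ENSDARG00000025428) was 47.8, 45.9 and 37.9 TPM in OBS30, against 15.5, 11.4 and 17.1 TPM in OBS20, a change of 1.53 ± 0.15 (limma adjusted p = 0.00118). Untreated larvae averaged 22.7 ± 0.665 TPM (SD, n = 3), above the OBS20 libraries and below the OBS30 libraries. Its partner socs3b had 29.8, 42.1 and 30.8 TPM in OBS30 and 13.6, 14.2 and 9.83 TPM in OBS20 (1.38 ± 0.17, adjusted p = 0.00298). All 3 OBS30 libraries lay above all 3 OBS20 libraries for both genes. Of the 24 tested members of the leptin, JAK, STAT and SOCS list 4 were called, all higher (lepb, socs3a, socs3b and pim2, a kinase induced by STAT signalling), and the same number was called without OBS20 replicate 3. The receptor-proximal kinases and the STAT factors in the list were not called, among them stat3 (0.95 ± 0.41, adjusted p = 0.33). The median change of the list was 0.29 above that of all tested genes.

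A collagenase, a gelatinase and an inhibitor of their family were higher. Matrix metalloproteinases cut the extracellular matrix during wound repair and tissue remodelling. The level of mmp13a (ENSDARG00000114451), a collagenase, was 84.5, 60.7 and 46.0 TPM in OBS30, against 11.3, 13.1 and 12.6 TPM in OBS20 (2.23 ± 0.22, limma adjusted p = 0.00114). The gelatinase mmp9 (ENSDARG00000042816) had 47.9, 40.0 and 31.0 TPM in OBS30 and 11.9, 13 and 9.95 TPM in OBS20 (1.67 ± 0.19, adjusted p = 0.00210). The inhibitor timp2b (ENSDARG00000075261) had 23.1, 38.4 and 20.6 TPM in OBS30 and 6.62, 6.90 and 3.93 TPM in OBS20 (2.04 ± 0.26, adjusted p = 0.00366). Every OBS30 library was above every OBS20 library for the 3 genes. Untreated larvae averaged 8.44 ± 2.31 TPM for mmp13a, 7.14 ± 1.29 TPM for mmp9 and 5.86 ± 1.52 TPM for timp2b (SD, n = 3 each). These were the 3 called of 21 tested family members, and each was called under all 21 alternatives. The broadly expressed mmp2 (0.29) and mmp14a (0.42) were higher in every OBS30 library than in any OBS20 library but were not called.

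Immediate early genes of the AP-1 family are the first responders to stress and growth signals, and a minority of them were called. Of 36 tested members of the AP-1 and immediate early list 7 were called higher (fosl1a, junba, atf3, junbb, jun, gadd45bb and gadd45aa) and 1 lower (nr4a3). The level of junba was 139, 86.3 and 83.2 TPM in OBS30, against 42.2, 33.4 and 34.1 TPM in OBS20 (1.43 ± 0.19, limma adjusted p = 0.00398). The stress factor atf3 had 30.2, 23.4 and 17.4 TPM in OBS30 and 9.80, 7.91 and 7.53 TPM in OBS20 (1.36 ± 0.18, adjusted p = 0.00366). Both calls held, and OBS30 replicate 1 was the highest library for each. The level of fosl1a was 29.1, 15.7 and 9.48 TPM in OBS30, against 4.47, 4.32 and 3.32 TPM in OBS20 (1.80 ± 0.31, adjusted p = 0.0164). That gene was not called without OBS30 replicate 3, nor without OBS20 replicate 3 (adjusted p = 0.0504). The orphan nuclear receptor nr4a3 had 13.8, 8.85 and 9.40 TPM in OBS30 and 28.3, 28.3 and 26.1 TPM in OBS20 (-1.31 ± 0.21, adjusted p = 0.0124), a call lost without OBS30 replicate 3 or 4. The number called higher in the list was 4 without OBS20 replicate 3, 4 without OBS30 replicate 1, 2 without OBS30 replicate 3, 4 without OBS20 replicate 1 and 3 without OBS20 replicate 2.

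Among inflammatory mediators, 3 prostaglandin genes and 2 chemokines were called higher, and the classical cytokine il1b was not called. The inducible cyclooxygenase ptgs2a had 51.7, 37.1 and 33.1 TPM in OBS30, against 18.5, 17.4 and 15.8 TPM in OBS20 (1.17 ± 0.15, limma adjusted p = 0.00309), and its call held. Of 16 tested prostaglandin genes 3 were called, all higher: ptgs2a, the prostaglandin E synthase ptges (1.18 ± 0.22, adjusted p = 0.0247) and the prostacyclin synthase ptgis (0.68 ± 0.14, adjusted p = 0.036). Without OBS20 replicate 3 the number was 2, with ptgis at an adjusted p of 0.07, and it was 1 without OBS30 replicate 3 or 4. The chemokine cxcl18b averaged 7.42 ± 1.67 TPM in OBS30 and 1.66 ± 0.720 TPM in OBS20 (SD, n = 3 each; change 1.68 ± 0.25, adjusted p = 0.00801), and its call held. The chemokine cxcl8b.1 averaged 9.12 ± 2.05 TPM in OBS30 and 2.81 ± 1.14 TPM in OBS20 (change 1.43 ± 0.29, adjusted p = 0.0329). They were the 2 called of 25 tested cytokine and chemokine genes, and the count was 1 without OBS30 replicate 1 or 3, OBS20 replicate 1 or 2, PFOS20 replicate 2 or untreated replicate 2.

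The level of il1b (ENSDARG00000098700) was 15.0, 5.35 and 3.21 TPM in OBS30, against 1.2, 1.37 and 1.55 TPM in OBS20. The groups did not overlap, and OBS30 replicate 1 was far above the other OBS30 libraries. The change was 1.67 ± 0.39 (limma adjusted p = 0.0586, and 0.11 without OBS20 replicate 3). The chemokine cxcl8a had 8.57, 3.91 and 4.44 TPM in OBS30 and 1.78, 2.78 and 2.76 TPM in OBS20 (0.90 ± 0.29, adjusted p = 0.187). Among receptors and effectors of cytokine signalling 3 of 32 tested genes were called, all higher. They were irg1l, an itaconate-producing enzyme of the innate response (1.3 ± 0.22, adjusted p = 0.0171), il4r.1 (1.29 ± 0.17, adjusted p = 0.00435) and tnfrsf1a, a receptor for tumour necrosis factor (0.65 ± 0.14, adjusted p = 0.038). For irg1l the untreated mean was 11.8 ± 1.24 TPM (SD, n = 3), against 15.6 TPM in OBS30 and 5.85 TPM in OBS20. Its OBS30 libraries were not called against untreated larvae (0.35, limma adjusted p = 0.414). The call of il4r.1 held; without OBS20 replicate 3 that of tnfrsf1a was lost, and without OBS30 replicate 1 or 3 the list had 1 call.

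Immune cell markers differed among themselves. The summed level of the 26 neutrophil list genes in the table, of which 19 were tested, was 759 to 866 TPM in OBS30 libraries and 468 to 604 TPM in OBS20 libraries, and the 3 called members were mmp13a, mmp9 and cebpd, which other cells also express. The granule markers mpx and lyz were not called: mpx had 3.56, 5.01 and 4.52 TPM in OBS30 and 4.80, 4.55 and 3.60 TPM in OBS20 (0.01 ± 0.18, limma adjusted p = 0.989), and the value for lyz was -0.50 ± 0.32 (adjusted p = 0.55). Without overlap, 8 of the 19 tested neutrophil genes were higher and 0 lower, where 11.2% and 6.19% of all tested genes were. Without OBS20 replicate 3 the numbers were 10 and 1, where 13.2% and 19.6% were. The median change of the neutrophil list was 0.27 above that of all tested genes, and 0.16 to 0.36 above it over the alternatives. The 46 macrophage and microglia list genes in the table, of which 31 were tested, summed to 2475 to 2707 TPM in OBS30 and 1698 to 1971 TPM in OBS20, with 3 called higher. These were the lipid carrier apoeb (968, 1145 and 1124 TPM in OBS30, against 505, 524 and 555 TPM in OBS20; 1.03 ± 0.10, adjusted p = 0.00114) and the lysosomal proteases ctsba and ctsla. The lineage factors spi1b (0.27) and spi1a (0.02) were not called. The median change of the macrophage and microglia list was 0.02 above that of all tested genes. It lay between -0.07 and 0.16 relative to all genes over the alternatives, so its sign was not stable. Whether immune cell number had a part in the mediators above was not tested.

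Some inducible chaperones were called higher. Heat shock protein 70 refolds damaged proteins and is produced on demand. The level of hsp70l (ENSDARG00000055723) was 45.9, 44.0 and 43.0 TPM in OBS30, against 12.5, 11 and 11.3 TPM in OBS20. Replicates agreed closely within each dose. The change was 1.85 ± 0.13, with the lowest adjusted p of the comparison's named genes (limma, 0.000301), and it was called under all 21 alternatives. Untreated larvae averaged 6.14 ± 0.590 TPM (SD, n = 3), lower than both doses. The copies hsp70.1 (19.6, 18.3 and 19.1 TPM in OBS30, against 5.19, 4.39 and 4.1 TPM in OBS20; 1.85 ± 0.16, adjusted p = 0.000742), hsp70.2 and hsp70.3 were also called, as was hsp90aa1.2 (1.1 ± 0.09, adjusted p = 0.000742). These hsp70 genes are near-identical copies, so reads may be shared among them and their separate levels are uncertain. In all 5 of 38 tested heat shock genes were called, all higher, and the list's median was only 0.06 above that of all genes. Without OBS20 replicate 3 the numbers were 4 higher and 1 lower, and hsp70.2 was not called (adjusted p = 0.057). The call of hsp70.2 was also lost without OBS20 replicate 1 or any 1 OBS30 library.

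In the integrated stress response cells slow translation and switch on ATF4 targets. Of 50 tested members 5 were called higher: cebpb, the eIF2 phosphatase subunit ppp1r15a, trib3, the amino acid transporter chain slc3a2b and atf4a. The level of cebpb was 314, 233 and 174 TPM in OBS30, against 85.2, 71.6 and 112 TPM in OBS20 (1.4 ± 0.22, limma adjusted p = 0.0102). For ppp1r15a it was 133, 101 and 98.0 TPM in OBS30, against 58.4, 49.6 and 58.5 TPM in OBS20 (0.97 ± 0.14, adjusted p = 0.00594). OBS30 replicate 1 was again the highest library for both, and both calls held. The number was 4 without OBS20 replicate 3, 3 without OBS30 replicate 1 or 3 and without OBS20 replicate 1 or 2, and 0 after median-of-ratios scaling.

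**Figure D2:**
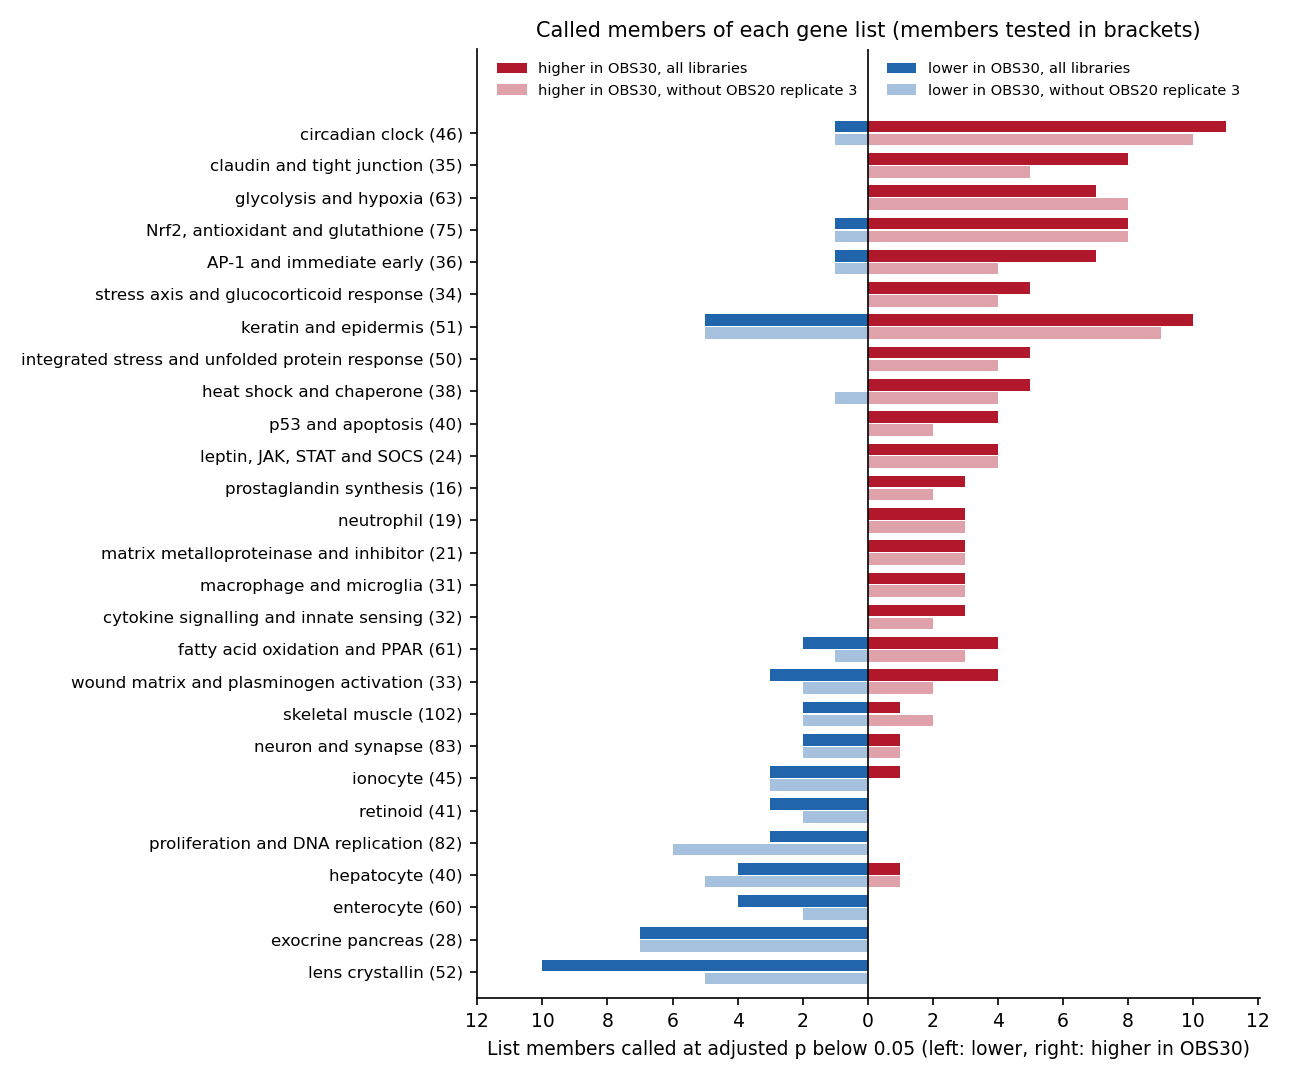
Number of members called higher (right of 0, red) and lower (left of 0, blue) in OBS30 than in OBS20 for each gene list with at least 3 called members, at adjusted p below 0.05; the number tested is in brackets. Dark bars are the fit with all libraries and pale bars the fit without OBS20 replicate 3: of circadian clock genes 11 were higher and 1 lower with it and 10 and 1 without it, of exocrine pancreas genes 7 were lower with and without it, and of lens genes 10 were lower with it and 5 without it.

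A minority of the antioxidant and conjugation genes of the Nrf2 programme were called. Nrf2 switches on glutathione and thioredoxin enzymes, ferritin and glutathione transferases when electrophiles or peroxides accumulate. Of 75 tested members 8 were called higher (gstp2, fthl27, sqstm1, prdx1, gsr, mt2, mgst3b and gstp1) and 1 lower (gsto1). The median change of the list was 0.06 above that of all genes, and it lay between -0.02 and 0.15 relative to all genes over the alternatives, so its sign was not stable. The glutathione transferase gstp2 had 338, 349 and 359 TPM in OBS30, against 144, 194 and 171 TPM in OBS20 (1.05 ± 0.18, limma adjusted p = 0.0149). The autophagy receptor sqstm1, itself an Nrf2 target, had 93.6, 123 and 112 TPM in OBS30 and 55.0, 50.5 and 58.8 TPM in OBS20 (0.98 ± 0.12, adjusted p = 0.00244). The peroxiredoxin prdx1 had 361, 389 and 354 TPM in OBS30 and 237, 202 and 206 TPM in OBS20 (0.77 ± 0.11, adjusted p = 0.00634). In all 3 genes OBS30 lay above OBS20 without overlap, and the untreated means of 47.2, 29.6 and 52.9 TPM (gstp2, sqstm1 and prdx1) were lower than every OBS library. The calls of sqstm1 and prdx1 held, and that of gstp2 was lost without OBS30 replicate 3 or 4 or OBS20 replicate 1. The most abundant transferase, gstp1, had 2789.5, 2585 and 2629 TPM in OBS30 and 1972, 1809.8 and 2101 TPM in OBS20 (0.45 ± 0.07, adjusted p = 0.00833).

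Not every Nrf2 target was called. The quinone reductase nqo1 had 68.0, 76.0 and 82.5 TPM in OBS30 and 66.8, 69.7 and 64.2 TPM in OBS20 (0.17 ± 0.10, limma adjusted p = 0.498). The level of gclc, which makes the rate-limiting step of glutathione synthesis, was 26.3, 27.7 and 30.7 TPM in OBS30 and 29.5, 30.5 and 24.7 TPM in OBS20, which overlap (0.00 ± 0.12). The thioredoxin reductase listed as txnrd3 overlapped as well (0.08 ± 0.16). Haem oxygenase hmox1a had 37.8, 18.5 and 25.9 TPM in OBS30 and 11.7, 9.26 and 10.9 TPM in OBS20 without overlap, at an adjusted p of 0.0563 (1.24 ± 0.28). After median-of-ratios scaling 1 member of the list was called higher and 1 lower, and after that scaling without OBS20 replicate 3 the numbers were 9 and 0. Without OBS20 replicate 1 the number called higher was 5, as it was without OBS30 replicate 4, and gsto1 was not called without OBS20 replicate 2 or OBS30 replicate 3 or 4.

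Xenobiotic response genes were mostly not called. The aryl hydrocarbon receptor binds planar foreign compounds and switches on CYP1 enzymes. None of the CYP1 genes of the aryl hydrocarbon receptor list was called. The level of cyp1a, the enzyme this receptor induces most, was 90.7, 76.1 and 79.1 TPM in OBS30, against 122, 133 and 100 TPM in OBS20 (-0.52 ± 0.15, limma adjusted p = 0.133). Untreated larvae averaged 44.3 ± 8.77 TPM (SD, n = 3), lower than either dose. The level of cyp1c2 was 6.80, 7.28 and 6.92 TPM in OBS30 and 5.41, 5.39 and 3.33 TPM in OBS20 (0.51 ± 0.18, adjusted p = 0.218). The P450 cyp2k18, at 34, 44.0 and 56.2 TPM in OBS30 and 46.9, 35.7 and 51.0 TPM in OBS20, overlapped between doses (-0.01 ± 0.27), with an untreated mean of 3.48 ± 1.75 TPM (SD, n = 3). The vitamin B12 carrier tcnbb was not called either (629, 485 and 461 TPM in OBS30, against 687, 601 and 745 TPM in OBS20; -0.38 ± 0.14, adjusted p = 0.264), with an untreated mean of 139.8 ± 20.9 TPM. Of the list's 16 tested genes 1, the transcription factor foxq1b, was called lower (-0.57 ± 0.12, adjusted p = 0.033), and that call was lost in 9 of the 12 fits that left a library out, though not in that without OBS20 replicate 3.

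Some circadian clock genes were called higher in OBS30. The clock of zebrafish cells runs on feedback between CLOCK and ARNTL activators and the repressors they switch on. Of 46 tested members 11 were called higher and 1 lower (cry3b), and 24 were higher without overlap between groups, where 11.2% of all tested genes were; without OBS20 replicate 3 it was again 24, where 13.2% were. The 11 called higher were nr1d4b (1.62 ± 0.29, limma adjusted p = 0.0207), nr1d4a (1.17 ± 0.22), cry2 (1.12 ± 0.23), nfil3-5, nfil3-6, nfil3, rorcb, ciarta, cry1b, bhlhe40 and nr1d1. The call of nr1d4b was lost without any 1 OBS30 library, and that of nr1d4a without OBS30 replicate 3 or 4. The repressor ciarta averaged 72.0 ± 1.24 TPM in OBS30 and 39.0 ± 4.99 TPM in OBS20 (SD, n = 3 each; change 0.88 ± 0.10, adjusted p = 0.0025). The factor nfil3 averaged 32.8 ± 3.57 TPM in OBS30 and 16.1 ± 0.370 TPM in OBS20 (change 0.98 ± 0.11, adjusted p = 0.00195). Both calls held, and without OBS20 replicate 3 the list had 10 called higher and 1 lower. It had 4 higher without OBS30 replicate 1 or 3 and 2 without OBS30 replicate 4, and the lower call of cry3b was made again only without OBS20 replicate 3 among the 12 fits that left a library out. The period genes per1a and per1b (0.81 and 0.78) and the activators clocka and arntl1b (0.47 and -0.07) were not called. The labels give no time of day at which any group was sampled.

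Of 63 tested glycolysis and hypoxia genes 7 were called, all higher, led by ndrg1b, a stress gene induced by low oxygen (139, 135 and 152 TPM in OBS30, against 75.2, 73.6 and 59.5 TPM in OBS20; 1.03 ± 0.17, limma adjusted p = 0.015), and hexokinase hk2 (10.6, 11.3 and 9.07 TPM in OBS30, against 4.89, 5.39 and 3.75 TPM in OBS20; 1.00 ± 0.18, adjusted p = 0.0205). For both genes every OBS30 library was above every OBS20 library, but neither call held. Both were lost without any 1 OBS30 library, and that of hk2 also without OBS20 replicate 1. Untreated larvae averaged 41.7 TPM for ndrg1b and 2.43 TPM for hk2. Without OBS20 replicate 3 the list had 8 calls. It had 2 without OBS30 replicate 3, 3 without OBS30 replicate 1 or 4, and 4 without OBS20 replicate 1. The mitochondrial uncoupling protein ucp3 had 239, 172 and 182 TPM in OBS30 and 76.9, 75.2 and 86.6 TPM in OBS20 (1.29 ± 0.15, adjusted p = 0.00213), and its call held. The muscle ubiquitin ligase fbxo32, a marker of protein breakdown in muscle, had 63.7, 40.6 and 52.2 TPM in OBS30 and 18.0, 20.2 and 13.4 TPM in OBS20 (1.54 ± 0.22, adjusted p = 0.00594) and was called under all 21 alternatives. Of the 102 tested muscle genes fbxo32 was the 1 called higher (0.98%, against 1.27% of all tested genes). Called lower were acta1b (-0.40 ± 0.08) and cavin4a (-0.44 ± 0.09), 1.96% against 0.519% of all tested genes. Neither of these lower calls held. Both were lost without any 1 OBS30 library, without OBS20 replicate 1 or 2 and without untreated replicate 3 or 4. That of cavin4a was also lost without OBS20 replicate 3. Parathyroid hormone pth1a, which governs calcium uptake, had 8.70, 6.56 and 5.64 TPM in OBS30 and 2.98, 2.46 and 2.34 TPM in OBS20 (1.13 ± 0.17, adjusted p = 0.00903), with an untreated mean of 1.05 TPM.

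Of 34 tested genes of the stress axis and glucocorticoid response 5 were called, all higher (socs3a, tat, pdk2b, mt2 and txnipa), each of which also stands in another list. Tyrosine aminotransferase tat, a classical glucocorticoid target in liver, had 78.3, 57.5 and 56.6 TPM in OBS30 and 32.7, 34 and 36.8 TPM in OBS20 (0.86 ± 0.14, limma adjusted p = 0.0138), a call lost without OBS20 replicate 1. Without that library 2 of the list were called, and 3 were without OBS30 replicate 1 or 4 or OBS20 replicate 2. Without OBS20 replicate 3 the number was 4. Of 40 tested p53 and apoptosis genes 4 were called, all higher, including sesn1 (139, 132 and 145 TPM in OBS30, against 88.5, 90.6 and 60.2 TPM in OBS20; 0.81 ± 0.14, adjusted p = 0.0167) and casp9. That number was 2 without OBS20 replicate 3, 1 and 1 without OBS30 replicates 1 and 4, and 0 without OBS30 replicate 3. It was 2 without OBS20 replicate 1 or 2, any 1 PFOS20 library, or untreated replicate 2 or 3.

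Among genes of the tight junction and epidermis lists, changes went in both directions. The RNA was from whole larvae, so these changes cannot be assigned to the skin. Claudins and occludins seal the spaces between epithelial cells, and 8 of 35 tested tight junction genes were called, all higher: cldnb, cldn11a, cldnc, cldn7b, cldne, cldnh, oclna and oclnb. The epidermal claudin cldnb had 356, 280 and 244 TPM in OBS30, against 161, 142 and 158 TPM in OBS20 (0.91 ± 0.15, limma adjusted p = 0.0117), and its call held. Its OBS30 libraries were all above its OBS20 libraries. The intestinal claudins cldn15a (-0.19) and cldn15la (-0.34) were not called. The number was 5 without OBS20 replicate 3, 3 without OBS30 replicate 1 or 4, 1 without OBS30 replicate 3, and 5 without OBS20 replicate 1 or 2. After median-of-ratios scaling it was 3.

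Of 51 tested keratin and epidermis genes 10 were called higher and 5 lower. Those called higher were mainly adhesion, annexin and stress-related genes: anxa1b, anxa2a, s100a10b (the annexin 2 partner), the simple-epithelium keratin krt18a.1, E-cadherin cdh1, desmoplakin dspa, elf3, agr1, cldnb and cldne. Those called lower were the keratins cyt1l, cyt1, krt5 and krt17 and the annexin anxa1c. The level of anxa1b was 59.8, 76.3 and 67.4 TPM in OBS30, against 28.8, 29.6 and 26 TPM in OBS20 (1.24 ± 0.14, limma adjusted p = 0.00195). Its untreated mean was 57.8 ± 2.18 TPM (SD, n = 3), above every OBS20 library. The change from untreated was -1.01 in OBS20 (limma adjusted p = 0.00391) and 0.22 in OBS30 (adjusted p = 0.399). For cyt1l the level was 560.5, 500.5 and 561 TPM in OBS30, against 1065, 1125 and 1114 TPM in OBS20 (-1.03 ± 0.12, adjusted p = 0.00264), with an untreated mean of 1094 ± 88.0 TPM (SD, n = 3). The doses did not overlap for either gene, which lay on opposite sides, and both calls held. The paralog anxa1c had 42.4, 38.5 and 36.7 TPM in OBS30 and 75.1, 73.1 and 82.0 TPM in OBS20 (-0.95 ± 0.13, adjusted p = 0.00417). Without OBS20 replicate 3 the list had 9 higher and 5 lower; it had 5 and 3 without OBS30 replicate 3, and 6 and 3 without OBS30 replicate 4. Fibronectin fn1b (87.9, 141 and 124 TPM in OBS30, against 55.0, 54.9 and 24.5 TPM in OBS20; 1.44 ± 0.30, adjusted p = 0.0411) was lowest in OBS20 replicate 3 and was not called without that library (1.06, adjusted p = 0.0644).

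The genes with the lowest changes included 2 ammonia transporters. Rhesus glycoproteins carry ammonia out of ionocytes and keratinocytes in zebrafish larvae. The level of rhcga (ENSDARG00000003203) was 39.6, 42.1 and 53.3 TPM in OBS30, against 155, 127 and 143 TPM in OBS20 (-1.64 ± 0.13, limma adjusted p = 0.000742). The level of rhcgl1 (ENSDARG00000007080) was 2.73, 2.25 and 2.05 TPM in OBS30, against 15.0, 14.9 and 9.54 TPM in OBS20 (-2.06 ± 0.22, adjusted p = 0.00167). Both were called under all 21 alternatives. Untreated larvae averaged 152 ± 9.35 TPM for rhcga and 21.4 ± 3.77 TPM for rhcgl1 (SD, n = 3 each). Other Rhesus genes were not called, with values of 0.37 ± 0.16 for rhcgb, -0.04 ± 0.20 for rhbg and -0.08 for rhag. Of 45 tested ionocyte genes 3 were called lower (rhcga, rhcgl1 and the carbonic anhydrase ca15a) and 1 higher (the sodium-proton exchanger slc9a3.1, lost in each of the 12 fits that left a library out). Without overlap, 12 of the 45 were higher and 5 lower, where 11.2% and 6.19% of all tested genes were. Without OBS20 replicate 3 the numbers were 12 and 11, where 13.2% and 19.6% were. The median change of the ionocyte list was 0.16 above that of all tested genes, and 0.08 above it without OBS20 replicate 3. The summed level of the 51 list genes in the table was 1685 to 1804 TPM in OBS30 and 1413 to 1793 TPM in OBS20, which overlap. The transglutaminase tgm1l3, of the family that cross-links proteins of the skin surface, had 1.21, 1.57 and 1.1 TPM in OBS30 and 7.21, 6.22 and 6.09 TPM in OBS20 (-1.71 ± 0.14, adjusted p = 0.000742).

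**Figure D3:**
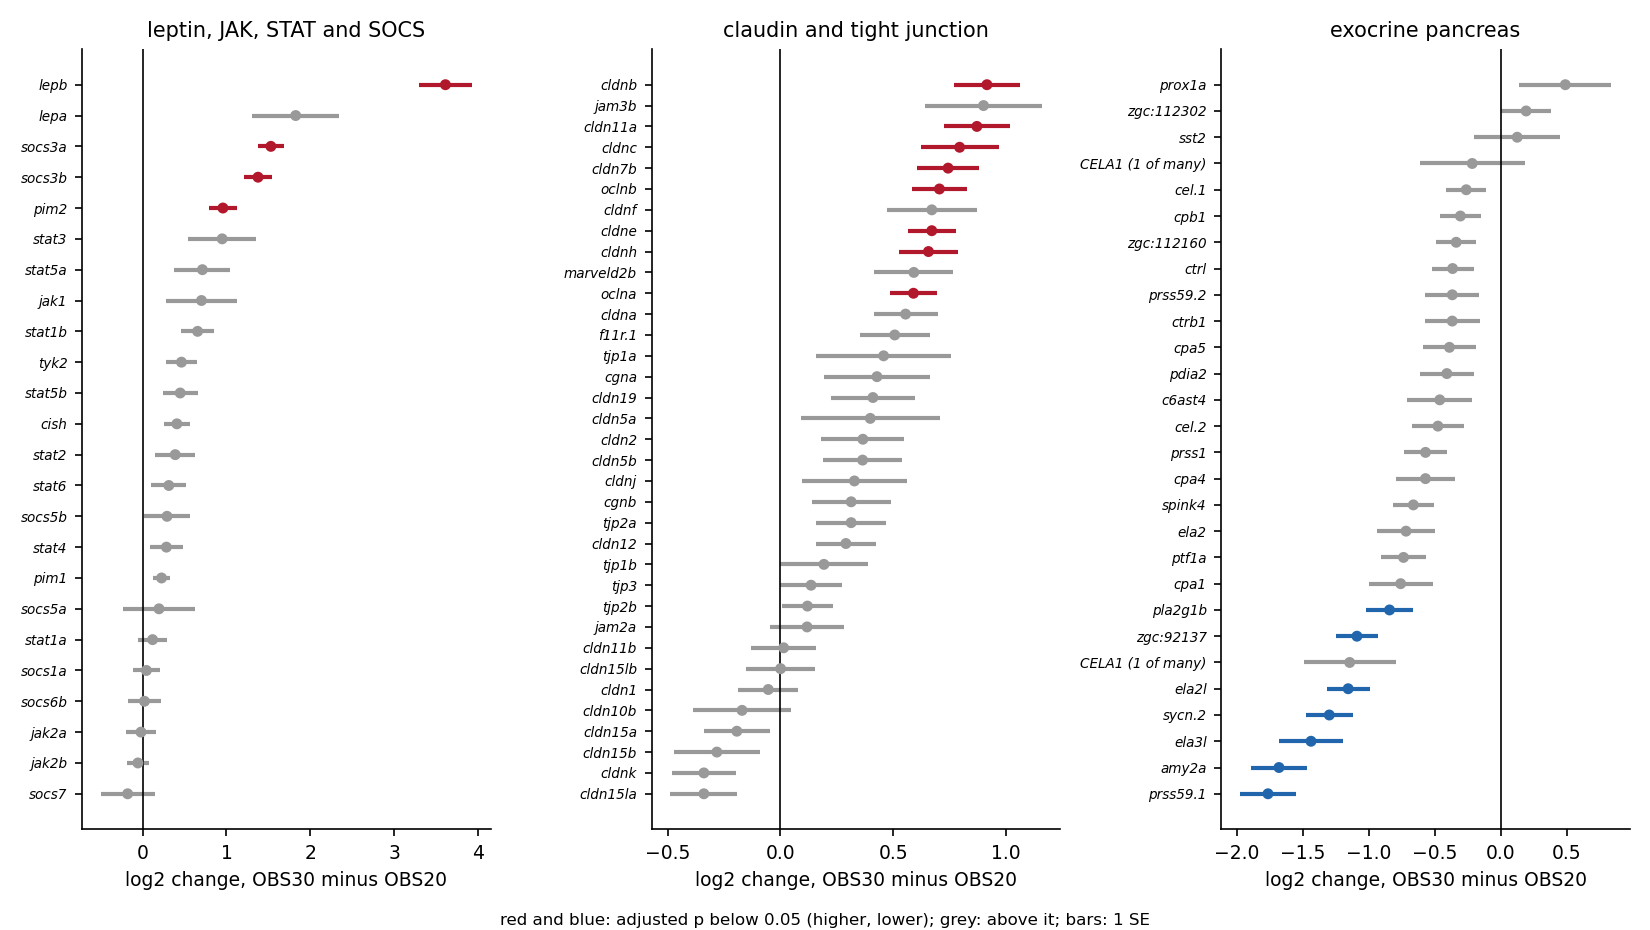
Change of every tested member of the leptin, JAK, STAT and SOCS list (left), the claudin and tight junction list (middle) and the exocrine pancreas list (right), as log2 change OBS30 minus OBS20 with bars of 1 SE. Red and blue points were called higher and lower in OBS30 and grey points were not called: 4 of 24 were called higher on the left, 8 of 35 higher in the middle and 7 of 28 lower on the right.

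Some digestive enzyme genes of the exocrine pancreas were called lower in OBS30. Of 28 tested members 7 were called, all lower: the trypsin prss59.1, amylase amy2a, the elastases ela3l and ela2l, the secretory granule gene sycn.2, phospholipase pla2g1b and zgc:92137. The level of prss59.1 (ENSDARG00000079274) was 68.2, 54.4 and 66.2 TPM in OBS30, against 214, 159.8 and 291 TPM in OBS20 (-1.76 ± 0.21, limma adjusted p = 0.00255). The level of amy2a (ENSDARG00000013856) was 15.6, 13.2 and 16.1 TPM in OBS30, against 52.9, 45.6 and 52.1 TPM in OBS20 (-1.68 ± 0.21, adjusted p = 0.00317). Both were called under all 21 alternatives, and prss59.1 was highest in OBS20 replicate 3. Untreated larvae averaged 329 ± 85.7 TPM for prss59.1 and 90.3 ± 30.6 TPM for amy2a (SD, n = 3). The syncollin copy sycn.3, outside the list, had 11.5, 12.2 and 13 TPM in OBS30 and 53.2, 39.8 and 43.7 TPM in OBS20 (-1.81 ± 0.30, adjusted p = 0.0149). Trypsins and syncollins are tandem copies whose reads may be shared.

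The 3 libraries of OBS30 were below the 3 of OBS20 for 22 of the 28 members, where 6.19% of all tested genes were; without OBS20 replicate 3 it was again 22, where 19.6% of all tested genes were. The median change of the list was 0.63 below that of all genes, 0.28 below it without OBS20 replicate 3, and 0.28 to 0.82 below it over the alternatives. The abundant trypsin prss1 (-0.57 ± 0.17, limma adjusted p = 0.13), the elastase ela2 (-0.72 ± 0.22, adjusted p = 0.15) and the acinar transcription factor ptf1a (-0.74 ± 0.17, adjusted p = 0.059) were not called. Of the 28 members 3 had a positive change, among them prox1a and sst2. The summed level of the 35 list genes in the table was 2378 to 2410 TPM in OBS30. In OBS20 replicates 1, 2 and 3 it was 3257, 3074 and 4891 TPM. The number called was 7 without OBS20 replicate 3 and 5 to 7 when any 1 of the 12 libraries was left out.

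Some genes of the lens, liver and gut were also called lower. Of 52 tested lens genes 10 were called, all lower, in crystallins, the densely packed proteins that make the lens clear. The level of crygm2d15 was 381, 329 and 324 TPM in OBS30, against 607, 570.5 and 572 TPM in OBS20 (-0.76 ± 0.08, limma adjusted p = 0.00191), and its call was made under all 21 alternatives. For crygm2d9 it was 1130.3, 951 and 1019 TPM in OBS30, against 1552, 1498.5 and 1599.7 TPM in OBS20 (-0.59 ± 0.07, adjusted p = 0.00298). Gamma-M crystallins are near-identical copies, so single members are uncertain. The number called was 5 without OBS20 replicate 3, 2 without OBS30 replicate 3 or 4, 6 without OBS30 replicate 1, 3 without OBS20 replicate 1, and 1 after median-of-ratios scaling. The 69 list genes in the table summed to 19060 to 22029 TPM in OBS30 and 24127 to 27951 TPM in OBS20.

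Of 40 tested hepatocyte genes 4 were called lower and 1, tat, higher. Transferrin tfa, the iron carrier of plasma, averaged 215 ± 16.2 TPM in OBS30 and 340.4 ± 11.5 TPM in OBS20 (SD, n = 3 each; change -0.67 ± 0.08, limma adjusted p = 0.00255), with an untreated mean of 520.2 TPM, and its call held. Fetuin fetub had 37.5, 39.4 and 39.2 TPM in OBS30 and 65.2, 62.4 and 55.5 TPM in OBS20 (-0.64 ± 0.11, adjusted p = 0.0175), with an untreated mean of 186 TPM. The bile acid enzyme cyp7a1 (-0.99 ± 0.19) and the vitamin D carrier gc (-0.73 ± 0.14) were the others. The liver fatty acid carrier fabp10a averaged 886 TPM in OBS30 and 1316 TPM in OBS20 and was not called (-0.59 ± 0.14, adjusted p = 0.059). The number called lower was 5 without OBS20 replicate 3, 1 without OBS30 replicate 3 or 4 and without OBS20 replicate 1 or 2, and 6 without OBS30 replicate 1. In the gut 4 of 60 tested enterocyte genes were called, all lower: chia.2, mep1a.1, rbp2b and fabp6, the bile acid carrier of the distal gut (375, 308 and 325 TPM in OBS30, against 604, 754 and 613 TPM in OBS20; -0.96 ± 0.18, adjusted p = 0.0247). That number was 2 without OBS20 replicate 3 or OBS30 replicate 1, and 0 without OBS30 replicate 3 or 4 or OBS20 replicate 2.

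**Figure D4:**
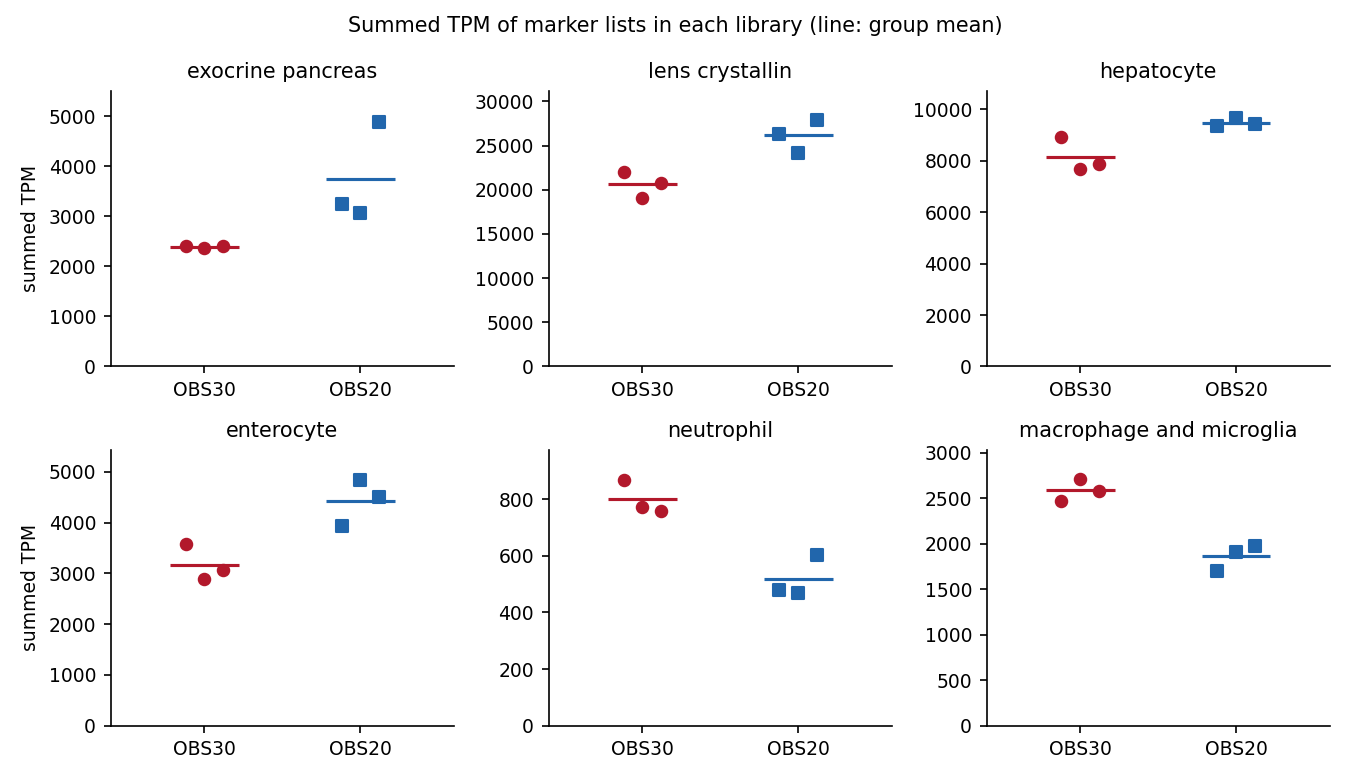
Summed TPM of 6 marker lists (all their genes in the table, tested or not) in each OBS30 library (circles, left) and each OBS20 library (squares, right), with the group mean as a line and each axis starting at 0. Exocrine pancreas, lens, hepatocyte and enterocyte sums were lower in every OBS30 library, and neutrophil and macrophage sums higher. The neutrophil sum is mostly mmp13a, mmp9, cebpd and hmgb3b. Of these, mmp13a and mmp9 are a small part: they averaged 63.7 and 39.6 TPM in OBS30, and 12.4 and 11.6 TPM in OBS20. In the macrophage sum the lipid carrier apoeb alone averaged 1079 TPM in OBS30 and 528 TPM in OBS20.

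A few proliferation genes and tubulins were called lower. Of 82 tested proliferation genes 3 were called, all lower: hmgb2b (369 ± 14.8 TPM in OBS30 and 540.2 ± 35.8 TPM in OBS20, SD, n = 3 each; change -0.55 ± 0.07, limma adjusted p = 0.00416), stmn1a (-0.59 ± 0.11, adjusted p = 0.0247) and mad2l1 (16.2, 16.4 and 15.8 TPM in OBS30, against 24.3, 26.1 and 27.0 TPM in OBS20; -0.65 ± 0.12, adjusted p = 0.0203). The call of hmgb2b held. Without OBS20 replicate 3 the number was 6, after quantile normalization 14, and without any 1 OBS30 library or OBS20 replicate 2 it was 1. It was 5 without PFOS20 replicate 3 or 4. In 31 of the 82 all 3 OBS30 libraries were below all 3 OBS20 libraries, where 6.19% of all tested genes were; without OBS20 replicate 3 it was 61, where 19.6% of all tested genes were. Of 19 tested tubulins tubb5 (124, 127 and 124 TPM in OBS30, against 194, 211 and 163 TPM in OBS20; -0.58 ± 0.11, adjusted p = 0.0248) and tubb2b (-0.66 ± 0.12) were called lower, and the panel gene tuba1c was not (-0.47 ± 0.14, adjusted p = 0.152). Neither tubulin call held: both were lost without any 1 OBS30 library and without OBS20 replicate 1 or 2. The list had 3 lower calls without OBS20 replicate 3 and 5 without PFOS20 replicate 4. Retinoid genes had 3 lower calls of 41 tested, in the gut and liver enzymes bco1 (-0.60 ± 0.11) and dhrs9 (-0.87 ± 0.14) and the carrier rbp2b. None was called without OBS30 replicate 3 or 4, 1 was without OBS20 replicate 2, and 2 were without OBS20 replicate 3.

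Ribosomal protein genes took a larger share of OBS20 replicate 3 than of the other OBS libraries. Of 81 tested cytosolic ribosomal protein genes 1 was called, rps9 (-0.28 ± 0.06, limma adjusted p = 0.040), and it was not called without OBS20 replicate 3. They took 13.9% to 15.2% of the TPM in OBS30 libraries, against 16.1%, 15.2% and 19.1% in OBS20 replicates 1, 2 and 3. Without overlap, 37 of the 81 were lower in OBS30 and 0 higher, where 6.19% and 11.2% of all tested genes were. Without OBS20 replicate 3 the numbers were 37 and 3, where 19.6% and 13.2% were. The median change of the list was 0.32 below that of all tested genes, and 0.06 below it without OBS20 replicate 3. The mitochondrial transcript mt-cyb had 5761, 5819 and 5669 TPM in OBS30 and 4813, 5118 and 4618 TPM in OBS20 (0.25 ± 0.06, adjusted p = 0.0693). Of 38 tested cholesterol synthesis and SREBP2 genes 2 were called, all higher. The number was 2 without OBS20 replicate 3 and 1 without OBS30 replicate 3 or 4. Cholesterol synthesis showed no call among its enzymes: the demethylase cyp51 had 9.44, 13.4 and 12.6 TPM in OBS30 and 11.4, 12.2 and 9.37 TPM in OBS20 (0.09 ± 0.16, adjusted p = 0.843). These overlapped, with an untreated mean of 30.4 ± 3.93 TPM (SD, n = 3).

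A few genes with large changes belong to none of these groups. The monocarboxylate transporter slc16a9a had 32.9, 38.0 and 33.9 TPM in OBS30 and 10.4, 12 and 4.71 TPM in OBS20 (1.92 ± 0.25, limma adjusted p = 0.00398); it was lowest in OBS20 replicate 3, and its call held. The gene edar, a receptor of the tumour necrosis factor family that patterns scales and teeth, had 11.6, 11.7 and 12 TPM in OBS30 and 1.76, 1.59 and 0.24 TPM in OBS20 (2.62 ± 0.57, adjusted p = 0.0466). Its call was lost in 10 of the 12 fits that left a library out, among them that without OBS20 replicate 3 (adjusted p = 0.127). The membrane gene ms4a17a.12 had 4.76, 6.50 and 8.24 TPM in OBS30 and 0.35, 0.49 and 0.86 TPM in OBS20 (2.25 ± 0.36, adjusted p = 0.0126), a call lost without OBS30 replicate 3 or 4. It is 1 of 11 tested ms4a17a copies, 7 of which were called higher, where 1.27% of all tested genes were. With every OBS20 library below 1 TPM, ms4a17a.12 passed the filter only through its OBS30 libraries. Copies that passed in this way were bound to be higher in OBS30, so the count cannot be read as a result about the family. This family was singled out after its values were seen, and reads may be shared among copies. The kinase gene pimr107, 1 of a large family of copies, was lower (0.86, 1.94 and 0.71 TPM in OBS30, against 5.94, 5.78 and 5.25 TPM in OBS20; -1.66 ± 0.21, adjusted p = 0.00305).

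**Figure D5:**
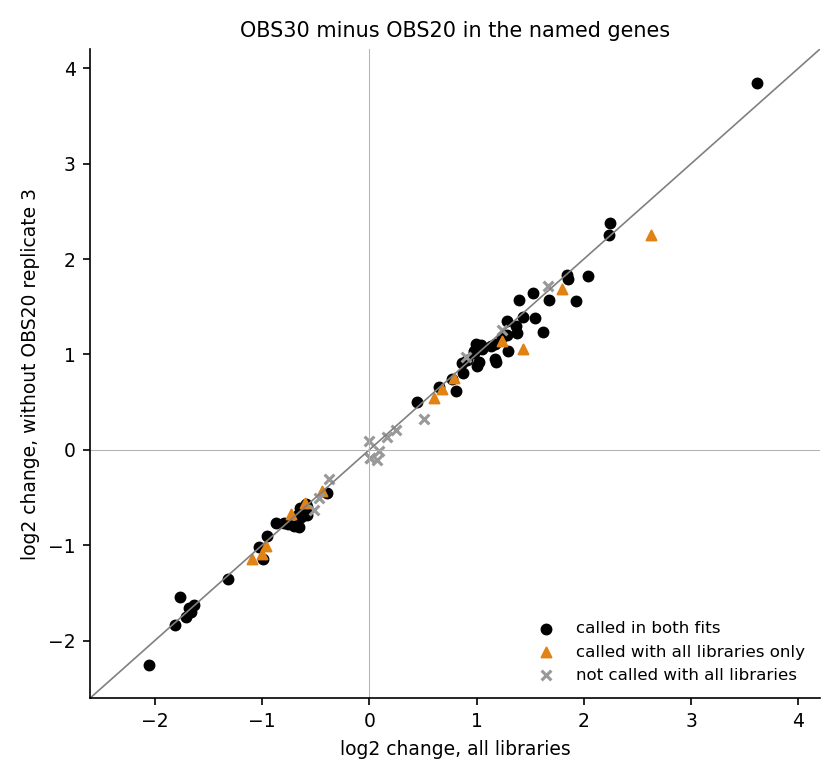
Log2 change OBS30 minus OBS20 of the 89 named genes with all libraries (horizontal) and without OBS20 replicate 3 (vertical), with the line of equal values. Of the 75 genes called with all libraries 62 were called without that library (circles) and 13 were not (triangles); the 14 crosses were not called with all libraries.

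Leaving out OBS20 replicate 3 turned the direction of no called named gene. Of the 89 genes named by rule 75 were called, and 62 of these were called again without that library. Those not called again included edar, fosl1a, fn1b, pdk2b, slc9a3.1, casp9, cavin4a, bco1, gc, fabp6, chia.2 and mep1a.1. The sign turned in 5 genes that were not called with either set of libraries (cyp2k18, cyp51, gclc, mpx and txnrd3). Of the 75, 35 were called with each of the 12 libraries left out, and 17 under every alternative setting tried.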

How the data were processed

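The authors deposited 1 table of TPM values for 44667 rows (32520 Ensembl genes and 12147 loci assembled from reads) in 12 libraries. HISAT2, StringTie, RSEM and the GRCz11 assembly are named, with no versions or roles, per the submitters' processing notes. TPM is a share of a library and keeps no depth, so the depth per library is unknown and no counting interval can be given. Strand use in counting is not given in the sources used here.

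From these values log2(TPM + 1) was computed and fitted with 1 term for the 4 groups over all 12 libraries (8 residual degrees of freedom). The tool was limma, version 3.58.1, in R 4.3.3, with trended eBayes moderation. The contrast was OBS30 minus OBS20, two-sided, with Benjamini-Hochberg adjustment over all 28315 tested genes. With 3 libraries against 3 an exact permutation test of a single gene cannot go below p = 0.1, so none is given. The method was tested on simulated data with independent noise in each gene. No simulated library stood apart, so that test does not cover a library like OBS20 replicate 3.

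Named genes were the 7 highest and 7 lowest changes among called, non-overlapping genes with a symbol and at least 5 TPM in the higher group, up to 2 called genes per direction of each list with at least 3 called members, and a panel of 28 genes (27 passed the filter on low values). Other genes in the text are list members; those singled out beyond this rule were chosen after their values were seen. The members, lists and panel were chosen with earlier results of these data known. The alternatives tried were a pseudocount of 0.1, testing every gene, testing genes that averaged 5 TPM or more, quantile or median-of-ratios scaling, the 6 OBS libraries alone, library weights, the replicate number as a block, and each library left out. Median-of-ratios scaling without OBS20 replicate 3 was added after the data had been seen.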

Additional observations from a re-analysis of the deposited data

How the results depend on the processing

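No named gene that was called turned direction under any alternative. The 360 higher and 147 lower calls became 115 and 29 with the 6 OBS libraries alone, and 939 and 658 with library weights. After quantile normalization 407 were called lower. Leaving out 1 library in turn gave 116 to 321 higher and 42 to 141 lower. The other scalings, filters and pseudocount kept both counts within 1.5 times. With the replicate block the counts were 117 and 36. OBS30 and OBS20 share only the numbers 1 and 3, and the deviations of those libraries had correlations of -0.13 and -0.13 over genes. With 1 pair of libraries per number, these correlations cannot show whether a number marks a batch. The cause of these shifts was not tested. Of the 75 called named genes and the 14 others, 24 lost their call after median-of-ratios scaling, 42 with the 6 OBS libraries alone, 40 under the block and 13 without OBS20 replicate 3. Depth is unknown, and genes near 1 TPM have the least precise changes.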

Other observations

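Further genes are given here as values, with means and SD over 3 libraries a group and adjusted p from limma. The cholesterol exporter abca1a averaged 66.1 ± 10 TPM in OBS30 and 28.7 ± 10 TPM in OBS20 (change 1.24 ± 0.24, adjusted p = 0.0258), a call lost without OBS30 replicate 3 or 4. The ubiquitin ligase mylipa, which degrades the LDL receptor, averaged 43.6 ± 3.67 TPM in OBS30 and 25.2 ± 2.26 TPM in OBS20 (0.77 ± 0.11, adjusted p = 0.00756). The cardiac hormone nppa averaged 14.2 ± 1.72 TPM in OBS30 and 5.86 ± 0.577 TPM in OBS20 (1.14 ± 0.18, adjusted p = 0.012), also lost without OBS30 replicate 3 or 4. The sarcomere gene tcap averaged 169 ± 17.7 TPM in OBS30 and 82.1 ± 2.47 TPM in OBS20 (1.03 ± 0.11, adjusted p = 0.00173). Glutamine synthetase glula, which fixes ammonia into glutamine, averaged 890.4 ± 32.6 TPM in OBS30 and 460.1 ± 46.0 TPM in OBS20 (0.96 ± 0.12, adjusted p = 0.00304). The calls of mylipa, tcap and glula were made with each of the 12 libraries left out.

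Among genes called lower, the mucosal lectin itln3 averaged 0.520 ± 0.161 TPM in OBS30 and 2.23 ± 0.637 TPM in OBS20 (-1.07 ± 0.21, limma adjusted p = 0.028), with an untreated mean of 11.7 TPM. The desaturase fads2 averaged 2.63 ± 0.471 TPM in OBS30 and 5.96 ± 1.34 TPM in OBS20 (-0.93 ± 0.18, adjusted p = 0.0247), with an untreated mean of 22.2 TPM. Both calls were lost without any 1 OBS30 library and without OBS20 replicate 1 or 2. The cone arrestin arr3b averaged 176 ± 8.18 TPM in OBS30 and 293 ± 20.2 TPM in OBS20 (-0.73 ± 0.12, adjusted p = 0.0149), lost without OBS30 replicate 3 or 4. The sulfotransferase sult3st2 averaged 2.82 ± 1.55 TPM in OBS30 and 9.09 ± 0.275 TPM in OBS20 (-1.49 ± 0.27, adjusted p = 0.0227), lost without OBS30 replicate 3 or any 1 OBS20 library.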
